A study of Mus musculus with 19 samples.

Results

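Heat shock genes encode chaperones, proteins that hold, fold and refold other proteins, and the factor that switches the inducible ones on. The 10 heat shock genes described here were taken by name from the 25891 genes of the expression table. They are the inducible cytosolic HSP70 genes *Hspa1a* and *Hspa1b*, the germ line HSP70 gene *Hspa2*, the constitutive cytosolic *Hspa8*, the endoplasmic reticulum (ER) HSP70 *Hspa5*, the mitochondrial *Hspa9* and *Hspd1*, the cytosolic HSP90 genes *Hsp90aa1* and *Hsp90ab1*, and the heat shock transcription factor gene *Hsf1*.

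The libraries came from a study of CPEB3, an RNA-binding protein. The study proposes that CPEB3 acts on the stability and translation of some maternal mRNAs, and describes its link to polyadenylation as indirect. Its question was what the oocyte and early embryo lose without CPEB3. RNA was measured in 5 Het and 5 KO libraries of MII oocytes (mature oocytes arrested in metaphase II) and in 5 Het and 4 KO libraries of 2cell embryos, where Het and KO are the genotypes in the labels. BL6 females of 6 to 10 weeks received 5 IU PMSG and, 48 h later, 5 IU hCG. MII oocytes were collected after ovulation, whereas zygotes from mated females were cultured in M16 medium and taken as 2cell embryos 37 h after hCG. Following the methods, KO stands for CPEB3 LoxP/LoxP females that carry ZP3 Cre+/-, so that deletion depends on Cre made in growing oocytes only. The control genotype of the methods is written there as CPEB3 LoxP/-, also with ZP3 Cre+/-, or as CPEB3+/+, while the study's results name CPEB3+/- oocytes as the counterpart in sequencing, and it describes matings with wild-type males. Each library was made from a pool of 5 cells with a kit that copies RNA from its poly(A) tail, so the amount of an mRNA and the fraction of it that carries a tail cannot be told apart. Fewer cells and less RNA per cell cannot be told apart in pools either. The methods speak of quadruplicates and the labels list 19 libraries, all of which were used. Nothing in the labels says that libraries of a group came from separate animals, so the p values measure the spread between libraries, which may be technical.

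HSP70 proteins bind exposed hydrophobic stretches of unfolded clients in a cycle driven by ATP. HSP40 proteins deliver clients to them, nucleotide exchange factors release the clients, and HSP90 takes over those that need late maturation, such as kinases and steroid receptors. In most cells heat or misfolded protein frees HSF1 from chaperones, and HSF1 then binds heat shock elements in front of *Hspa1a* and *Hspa1b*. The mouse embryo is different in that both genes are transcribed without heat at the time when the embryonic genome becomes active, which made them a classic marker of this activation. HSF1 is also a maternal factor, needed in the mouse oocyte for meiosis and for normal HSP90 levels.

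*Hspa1a* and *Hspa1b* lie next to each other on the minus strand of chromosome 17 and have no introns. Their coding sequences were 99.4% identical in GENCODE vM21, with a longest identical run of 638 bases against reads of 150 bases, so a read from either gene can often not be assigned. For this reason the sum of both was also examined. Upstream sequences, which a transcription factor would meet, were at hand for 5 members, and those of the 4 among them that were called in a comparison are printed first. They are the 250 bases before the RefSeq start of each gene (GRCm38.p6), 5′ to 3′ on the strand of the gene, at chr17:34972157-34972406 for *Hspa1a*, chr17:34959239-34959488 for *Hspa1b*, chr12:76404120-76404369 for *Hspa2* and chr2:34771840-34772089 for *Hspa5*. The window at chr1:55087933-55088182 belongs to the inner of 2 RefSeq starts of *Hspd1* and is shown as a counterpart from a member that was called in none. In the gene coordinates of the expression data, *Hspa2* begins at chr12:76404176 and *Hspa5* at chr2:34771970. Part of their windows thus lies inside the gene as measured, and so does the *Hspd1* window. Capitals mark a pair of inverted heat shock units (GAANNTTC or TTCNNGAA), a CCAAT box on either strand (CCAAT or ATTGG) or TATAA on the strand of the gene.
Hspa1a: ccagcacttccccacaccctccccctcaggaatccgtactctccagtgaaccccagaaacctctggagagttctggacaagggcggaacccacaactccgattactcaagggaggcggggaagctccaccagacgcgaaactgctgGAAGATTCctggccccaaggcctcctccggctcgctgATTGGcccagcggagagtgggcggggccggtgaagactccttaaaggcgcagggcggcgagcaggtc
Hspa1b: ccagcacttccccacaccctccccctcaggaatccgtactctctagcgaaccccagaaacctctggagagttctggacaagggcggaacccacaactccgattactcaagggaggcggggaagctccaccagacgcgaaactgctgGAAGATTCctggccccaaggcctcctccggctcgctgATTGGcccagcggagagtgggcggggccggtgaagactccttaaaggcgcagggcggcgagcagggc
Hspa2: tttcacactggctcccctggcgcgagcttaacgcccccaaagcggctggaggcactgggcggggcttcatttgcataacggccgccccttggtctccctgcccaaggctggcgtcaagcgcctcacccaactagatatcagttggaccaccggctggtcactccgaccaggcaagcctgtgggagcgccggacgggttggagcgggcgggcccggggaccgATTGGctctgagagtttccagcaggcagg
Hspa5: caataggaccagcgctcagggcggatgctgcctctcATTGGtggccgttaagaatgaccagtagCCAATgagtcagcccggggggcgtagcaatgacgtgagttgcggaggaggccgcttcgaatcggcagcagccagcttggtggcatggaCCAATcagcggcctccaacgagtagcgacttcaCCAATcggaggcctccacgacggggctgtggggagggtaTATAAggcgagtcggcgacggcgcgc
Hspd1: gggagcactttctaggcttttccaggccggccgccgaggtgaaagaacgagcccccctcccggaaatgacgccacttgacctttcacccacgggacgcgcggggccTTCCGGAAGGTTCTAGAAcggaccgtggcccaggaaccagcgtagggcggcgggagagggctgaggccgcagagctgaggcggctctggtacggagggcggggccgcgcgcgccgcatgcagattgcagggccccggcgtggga

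The windows of *Hspa1a* and *Hspa1b* were identical at 247 of 250 bases. Both held 1 heat shock pair, GAAGATTC, which begins 104 bases before the start, and 1 CCAAT box, which begins 67 bases before it. The windows of *Hspa2* and *Hspa5* held no heat shock pair. *Hspa5* instead had 4 CCAAT boxes and a TATAA that begins 26 bases before the start, and *Hspa2* had 1 CCAAT box at 29 bases. The inner *Hspd1* window held 3 heat shock pairs that overlap each other, and the outer one held none. Among all 32851 RefSeq windows of this length, 12.8% held a heat shock pair, 33.9% a CCAAT box and 16.0% TATAA. A match is a description of letters and not of binding. The members without a window are *Hspa8*, *Hspa9*, *Hsp90aa1*, *Hsp90ab1* and *Hsf1*. In the annotated 3′UTR, UUUUAU, the core of the element that CPEB proteins are known for, occurred 3 times in *Hspa1b*, 2 times in *Hspa5*, 2 times in *Hsp90ab1* and 1 time each in *Hspa1a* and *Hspa2*. It did not occur in the other 5 members, and it was present in 59.0% of 7691 genes tested in MII oocytes.

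Depth, estimated roughly from the steps between low values, ran from 17.3 to 23.5 M fragments per library (M stands for mega). *Cpeb3* RNA went against the labels, since it was 0.162 ± 0.0325 FPKM (SD, n = 5) in the KO and 0.0755 ± 0.0240 (n = 5) in the Het MII libraries, a log2 difference of 0.53 ± 0.12 (SE, adjusted p = 0.0142 in limma). This was under the 1.5-fold limit used for calls below. The gene passed the filter of 0.1 FPKM through the KO libraries, which had 0.131 FPKM or more, where the Het ones ranged from 0.0450 to 0.101. A value over the whole gene does not separate the deleted part from the rest. The libraries are therefore called Het-labelled and KO-labelled throughout, and each direction between genotypes rests on these labels. The 9 oocyte markers listed, *Zp3* and *Gdf9* among them, summed to 839 to 1171 FPKM in MII and to 136 to 201 FPKM in 2cell libraries. The list of genes first transcribed in the 2cell embryo, of which 7 of 9 genes were in the table, summed to 1.73 to 2.59 FPKM in Het-labelled MII, 9.68 to 21.8 in KO-labelled MII and 178 to 617 in 2cell libraries. Cumulus and granulosa cell markers (11 of 15 in the table) did not exceed a sum of 1.30 FPKM, with *Foxl2* at 0 in all MII libraries, and sperm markers (3 of 6) did not exceed 1.31 FPKM. Of the blood list, 2 of 5 genes were in the table, the alpha globins *Hba-a1* and *Hba-a2*. They summed to 0.0512 to 0.428 FPKM in MII and to 46.2 to 146 FPKM in 2cell libraries, and their part in the stage differences was not tested.

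The heat shock genes changed from a maternal set dominated by HSP90 in the oocyte to a set in the embryo in which *Hspa5*, *Hspa2*, *Hspa1a* and *Hspa1b* had gained weight. In FPKM (fragments per kilobase of transcript and per M fragments, a level scaled for length), the 10 members summed to 274 ± 9.29 (SD, n = 5) in Het-labelled and 295 ± 8.93 (n = 5) in KO-labelled MII libraries. In 2cell embryos the sum was 131 ± 6.31 (n = 5) and 133 ± 8.43 (n = 4). As a share of all FPKM this was 0.319% and 0.363% in MII against 0.0884% and 0.110% in 2cell libraries. The order of the levels was *Hsp90aa1*, *Hsp90ab1*, *Hspa5*, *Hspa8*, *Hspa9*, *Hspd1*, *Hsf1*, *Hspa2*, *Hspa1b* and *Hspa1a* in Het-labelled MII libraries, and the ranges overlapped only between neighbours among the last 3. In KO-labelled MII libraries *Hsp90ab1* stood ahead of *Hsp90aa1*, *Hspa9* ahead of *Hspa8* and *Hspa1b* ahead of *Hspa2*, with overlapping ranges in all 3 pairs. In Het-labelled 2cell embryos *Hspa5* led, overlapping with *Hsp90ab1*, and *Hsf1* was the lowest. In KO-labelled 2cell embryos *Hsp90ab1* led and *Hspa5* was next, with ranges that did not overlap, while *Hsp90aa1*, *Hspa2*, *Hspa1a*, *Hspa1b* and *Hspa8* followed in a chain of overlapping ranges.

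**Figure D1:**
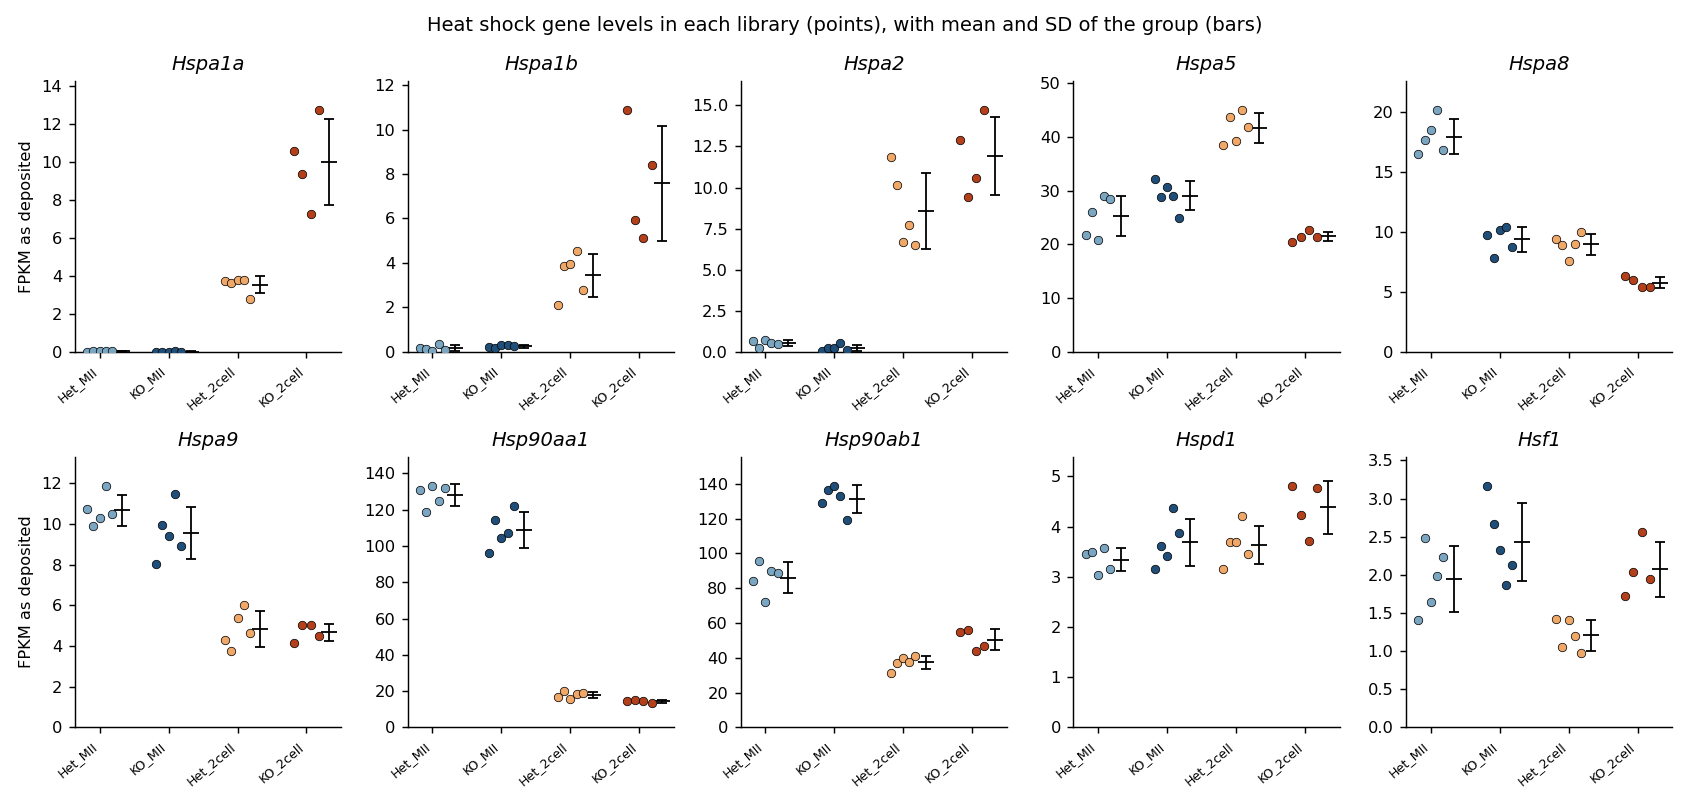
Levels of the 10 heat shock genes in FPKM as deposited (vertical axes, linear, starting at 0), with 1 point per library in the 4 groups and a bar for mean and SD. *Hspa1a*, *Hspa1b* and *Hspa2* are near 0 in MII oocytes and present in every 2cell library, *Hsp90aa1* falls from 96.4 to 133 in MII to 13.5 to 20.2 FPKM in 2cell libraries, and *Hspa5* is higher in Het-labelled 2cell embryos (38.4 to 45.0) than in any KO-labelled one (20.5 to 22.7).

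A gene was called where the limma test gave an adjusted p under 0.05 and more than a 1.5-fold change. Between MII and 2cell stages of Het-labelled libraries, 9 of 10 members were called, 4 higher (*Hspa1a*, *Hspa1b*, *Hspa2*, *Hspa5*) and 5 lower (*Hspa8*, *Hspa9*, *Hsp90aa1*, *Hsp90ab1*, *Hsf1*) in the embryo. Of all 12684 genes tested 69% were called, 41% higher and 28% lower, so a call alone says little about a member. In KO-labelled libraries 7 of 10 were called, 3 higher (*Hspa1a*, *Hspa1b*, *Hspa2*) and 4 lower (*Hspa8*, *Hspa9*, *Hsp90aa1*, *Hsp90ab1*), where the background was 66.7%, with 39.8% higher and 26.9% lower. *Hspa1a* passed the filter on low values only through the 2cell libraries, so that it had to differ once tested. *Hspa1b* reached the 0.1 FPKM of the filter in 3 of 5 Het-labelled MII libraries. The median log2 change of the members was -0.23 and -0.27, beside 0.25 and 0.24 over all genes.

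Between genotypes, 1 of the 9 members tested in MII oocytes was called, namely *Hspa8*, which was lower, against 12.9% of 10515 genes called, 5.71% higher and 7.15% lower. *Hspa1a* did not pass the filter there, and *Hspa1b* passed through the KO-labelled libraries. In 2cell embryos 5 of 10 members were called, 3 higher (*Hspa1a*, *Hspa1b*, *Hsf1*) and 2 lower (*Hspa5*, *Hspa8*) in the KO-labelled libraries, against 18.1% of 14051 genes, 8.73% higher and 9.35% lower. The interaction of stage and genotype, which tests whether the genotype difference itself differed between stages, was called for 2 of 10 members, *Hspa1a* (higher, with its MII side below the floor) and *Hspa5* (lower), against 7.73% of 15786 genes, 3.83% higher and 3.9% lower. The median log2 change of the members was 0.04 in MII and 0.31 in 2cell libraries and 0.32 for the interaction, beside 0.02, 0.01 and 0.04 over all genes.

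These directions depend in part on scaling. The main scaling trimmed extreme ratios, and scaling each library to its sum of FPKM moved the median log2 change of all genes from 0.02 to 0.15 in MII, from 0.01 to 0.26 in 2cell embryos, from 0.25 to -0.41 between stages in Het-labelled and from 0.24 to -0.25 in KO-labelled libraries, and from 0.04 to 0.12 for the interaction. The calls over all genes then turned from 600 higher and 752 lower to 1111 and 478 in MII, from 1226 and 1314 to 2423 and 573 in 2cell embryos, from 5199 and 3554 to 3920 and 5588 between stages in Het-labelled and from 5355 and 3625 to 4277 and 5280 in KO-labelled libraries, and from 605 and 615 to 802 and 416 for the interaction. Among the members the same scaling gave 1 higher and 1 lower in MII, 5 higher and 1 lower in 2cell embryos, and 3 higher and 6 lower between stages in either genotype.

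*Hspa1a* was below the floor in oocytes and measured in every embryo library. In Het-labelled 2cell embryos it was at 3.70, 3.61, 3.76, 3.79 and 2.76 FPKM in libraries A to E. The KO-labelled embryos, A to D, had 10.6, 9.36, 7.26 and 12.7 FPKM. All 10 MII libraries were at 0.0398 FPKM or less, which corresponds to between 0 and 2.44 fragments and lies below a floor of 3 fragments in each of them. Every 2cell library thus stood clear of every MII library, and every KO-labelled 2cell library stood above all Het-labelled ones. Against the floor of 3 fragments in 1 library, *Hspa1a* as assigned was at least 67.3-fold higher in Het-labelled 2cell embryos than in MII oocytes, and at least 192-fold higher in the KO-labelled ones. These bounds cover counting error only and not the split of reads between the near copies. The *Hspa1a* share of the sum of both ran from near 0% to 48.6% in Het-labelled and from 0% to 6.65% in KO-labelled MII libraries. The mean of that sum, which does not depend on the split, was 40.5-fold and 70.2-fold higher in the embryo. *Hspa1a* rose in KO-labelled over Het-labelled 2cell embryos by a log2 change of 1.42 ± 0.18 (SE, adjusted p = 0.00162), that is 2.68-fold.

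The near copy *Hspa1b* was detected at low level in the oocyte and shared the pattern. Its values in Het-labelled 2cell embryos were 2.11, 3.87, 3.93, 4.52 and 2.78 FPKM. In KO-labelled 2cell embryos they were 10.9, 5.93, 5.11 and 8.39 FPKM, all above the Het-labelled range. In MII oocytes it was at 0.174, 0.128, 0.0151, 0.355 and 0.0911 FPKM in the Het-labelled and at 0.203, 0.163, 0.319, 0.30 and 0.245 FPKM in the KO-labelled libraries, with overlapping ranges and values that rest on 0.992 to 20.1 fragments. *Hspa1b* rose between stages by a log2 change of 3.93 ± 0.33 in Het-labelled (adjusted p = 6.79e-07) and of 4.48 ± 0.25 in KO-labelled libraries (adjusted p = 9.74e-08). Between genotypes it rose by 1.07 ± 0.26 in 2cell embryos (adjusted p = 0.0193). This call was lost without KO-labelled 2cell library D (adjusted p = 0.0534) and once the relation to GC content was removed (log2 change 0.72, adjusted p = 0.0740). Over 13933 genes the log2 change between genotypes in 2cell embryos had a Pearson r of 0.366 with the GC content of the transcript, and *Hspa1a* and *Hspa1b* hold 59.0% and 58.1% GC. *Hspa1a* kept its call with the relation removed (log2 change 1.04, adjusted p = 0.00489).

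Since reads may be split between the near copies, their sum is the firmer quantity. It was 0.172 ± 0.130 (SD, n = 5) and 0.25 ± 0.0702 FPKM (n = 5) in Het-labelled and KO-labelled MII oocytes, and 6.97 ± 1.22 (n = 5) and 17.6 ± 4.46 FPKM (n = 4) in 2cell embryos. The KO-labelled 2cell libraries (12.4 to 21.4 FPKM) did not overlap with the Het-labelled ones (5.53 to 8.31 FPKM). On the log2 scale with 0.1 FPKM added, the sum was 1.30 higher in KO-labelled 2cell embryos, and a two-sided exact permutation test gave p = 0.00794, the smallest the design allows, or 0.00866 adjusted over the 12 tests of single values. In MII oocytes the difference was 0.47 (exact permutation p = 0.222), and 0.71 (adjusted p = 0.0318) without Het-labelled MII library D, which held the highest value of its group. *Hspa1a* made up 45.6% to 63.7% of the sum in Het-labelled and 49.3% to 61.2% in KO-labelled 2cell embryos.

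For *Hspa1a* the interaction of stage and genotype was 1.64 ± 0.22 on the log2 scale (adjusted p = 2.13e-04 in limma). Its MII side rests on libraries below the floor, where the added 0.1 FPKM holds the difference near 0, so the value restates the 2cell difference and does not show that it differed from that in MII oocytes. For *Hspa1b* the interaction was 0.58 ± 0.45 (adjusted p = 0.481) with a 95% interval from -0.37 to 1.52, and it passed only with a pseudocount of 1 (0.82, adjusted p = 0.0373). The 8 immediate early genes listed, which cells switch on within minutes of stimulation or handling (*Fos*, *Egr1* and *Ier2* among them), were also higher in sum. They came to 34.1 to 51.6 FPKM in KO-labelled and 14.9 to 24.7 FPKM in Het-labelled 2cell embryos, against 16.5 to 29.4 FPKM in MII libraries. Most of the MII sum was *Dusp1*, with means of 19.3 and 25.1 FPKM in Het-labelled and KO-labelled MII and of 7.21 and 11.2 FPKM in 2cell libraries. All the others listed had higher means in 2cell than in MII libraries of either genotype, *Ier2* for example 7.86 against 0.248 FPKM in Het-labelled ones. The part of these genes in the *Hspa1a* and *Hspa1b* result was not tested.

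*Hspa2*, an HSP70 best known from spermatocytes, was the other member with a large rise from oocyte to embryo. It was at 11.8, 10.1, 6.66, 7.71 and 6.53 FPKM in Het-labelled and at 12.9, 9.42, 10.6 and 14.7 FPKM in KO-labelled 2cell embryos, with overlapping ranges. In MII oocytes it was at 0.673, 0.247, 0.687, 0.537 and 0.471 FPKM in the Het-labelled and at 0.0323, 0.205, 0.252, 0.550 and 0.110 FPKM in the KO-labelled libraries. These MII values rest on 12.8 to 40.7 and 1.83 to 28.7 fragments, and KO-labelled library A was below the floor of 3. Each 2cell library was far above each MII library, and *Hspa2* rose between stages by a log2 change of 3.84 ± 0.27 in Het-labelled (adjusted p = 1.21e-07) and of 5.4 ± 0.40 in KO-labelled libraries (adjusted p = 8.51e-07). Its genotype difference in MII oocytes was -1.123 ± 0.41 (adjusted p = 0.0718) and passed the test without Het-labelled MII library B (-1.34, adjusted p = 0.0421), without KO-labelled MII library D (-1.42, adjusted p = 0.0198) or with all 19 libraries in 1 fit (-1.13, adjusted p = 0.0408). In 2cell embryos it was 0.45 ± 0.23 (adjusted p = 0.190), and it was called when libraries were scaled to the sum of FPKM (0.78, adjusted p = 0.0264). The interaction of 1.61 ± 0.50 had an adjusted p of 0.0553, and it was called without Het-labelled MII library B (1.83), without KO-labelled MII library D (1.92) or without Het-labelled 2cell library A (1.74), and also when scaled to the sum of FPKM (1.85), with a pseudocount of 1 (0.78) or with a filter of 1 FPKM (1.60). *Hspa1l*, a testis-enriched HSP70 that shares 233 consecutive bases with *Hspa1a*, lay below the floor in all MII libraries and reached 0.309 ± 0.174 (n = 5) and 0.520 ± 0.228 FPKM (n = 4) in 2cell embryos, where 1 Het-labelled library was also below it (0.0222 FPKM).

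*Hspa8* (HSC70), the constitutive cytosolic HSP70 that also strips clathrin from vesicles, went the opposite way. In MII oocytes it was at 16.5, 17.7, 18.5, 20.1 and 16.8 FPKM in the Het-labelled libraries. The KO-labelled ones had 9.72, 7.82, 10.1, 10.4 and 8.72 FPKM. Every KO-labelled oocyte library was below every Het-labelled one, and *Hspa8* fell by 1.02 ± 0.11 on the log2 scale (adjusted p = 2.49e-04), a call that held with each of the 10 libraries left out (adjusted p up to 0.00124). The genes of the 2cell list given above summed higher in the same KO-labelled MII libraries, and its part in this difference was not tested.

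The lower *Hspa8* level was also seen in the embryo. In 2cell libraries the values were 9.37, 8.92, 7.56, 8.93 and 9.95 FPKM in the Het-labelled and 6.35, 5.93, 5.37 and 5.38 FPKM in the KO-labelled ones, again without overlap. The log2 change was -0.66 ± 0.12 (adjusted p = 0.00746), and the call was lost when libraries were scaled to the sum of FPKM (-0.33, adjusted p = 0.0695) or only genes with 1 FPKM were tested (-0.56, adjusted p = 0.00837, under the fold limit). Between stages *Hspa8* fell by 0.97 ± 0.11 in Het-labelled (adjusted p = 8.42e-06) and by 0.63 ± 0.12 in KO-labelled libraries (adjusted p = 7.94e-04). The latter stayed under the fold limit without KO-labelled MII library D (-0.58) or 2cell library C (-0.56), with a pseudocount of 1 (-0.56) or with a filter of 1 FPKM (-0.57). Its interaction was 0.41 ± 0.16 (adjusted p = 0.123).

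The inducible HSP70 genes were also set against *Hspa8* within a library. The log2 ratio of the *Hspa1a* and *Hspa1b* sum to *Hspa8*, with 0.1 FPKM added to each, was -6.18 ± 0.65 (SD, n = 5) and -4.77 ± 0.18 (n = 5) in Het-labelled and KO-labelled MII oocytes, values set partly by the 0.1 FPKM, and -0.37 ± 0.37 (n = 5) and 1.56 ± 0.35 (n = 4) in 2cell embryos. In KO-labelled embryos the inducible genes thus exceeded the constitutive one in all 4 libraries (1.19 to 1.95), while the Het-labelled libraries ranged from -0.83 to 0.02. All 4 comparisons of this ratio had an exact permutation p of 0.00794, adjusted 0.00866, with differences of 1.4 and 1.93 between genotypes in MII and 2cell libraries and of 5.81 and 6.33 between stages. In MII oocytes the sum itself did not pass its test, and *Hspa8* alone was lower by 1.02 (log2 change -1.02), so the ratio there holds the *Hspa8* difference.

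**Figure D2:**
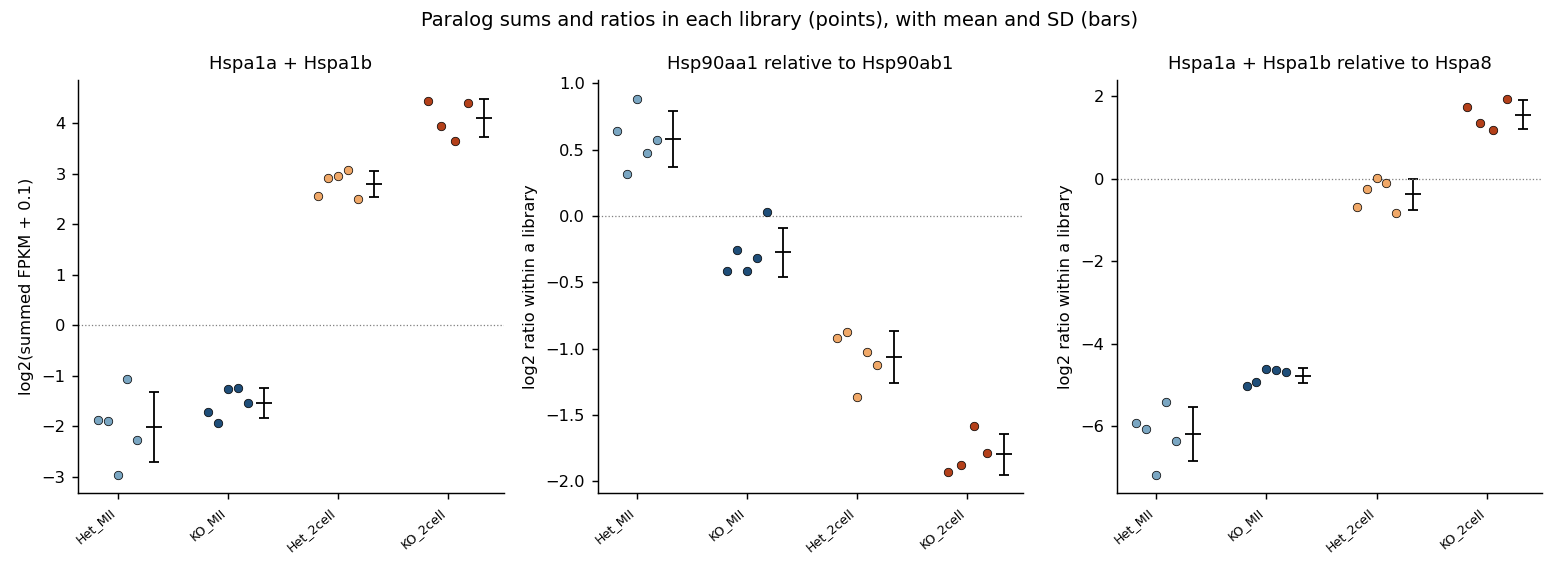
Each point is 1 library and each bar the mean and SD of its group, for the summed *Hspa1a* and *Hspa1b* level (log2 of FPKM plus 0.1), the log2 ratio of *Hsp90aa1* to *Hsp90ab1*, and the log2 ratio of the *Hspa1a* and *Hspa1b* sum to *Hspa8*. The genotypes are apart in all panels except the sum in MII oocytes, and the ratio of *Hsp90aa1* to *Hsp90ab1* steps down from 0.58 to -0.27 to -1.06 to -1.80 in the order of the groups on the horizontal axis.

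*Hspa5* (BiP, also GRP78) is the HSP70 of the ER lumen, where it folds secreted and membrane proteins and keeps the sensors of the unfolded protein response in check. In Het-labelled 2cell embryos it was at 38.4, 43.7, 39.3, 45.0 and 41.9 FPKM. In KO-labelled embryos it was at 20.5, 21.3, 22.7 and 21.4 FPKM. The ranges lay far apart, and *Hspa5* fell by 0.98 ± 0.10 on the log2 scale (adjusted p = 0.00109), that is 1.98-fold. The change kept its call with the relation to GC content removed (-0.86, adjusted p = 0.00163), when scaled to the sum of FPKM (-0.66, adjusted p = 0.00279) and with each of the 9 libraries left out (adjusted p up to 0.00468).

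In MII oocytes *Hspa5* was at 21.8, 26.1, 20.9, 29.1 and 28.5 FPKM in the Het-labelled and at 32.2, 28.7, 30.6, 29.0 and 24.8 FPKM in the KO-labelled libraries. These ranges overlapped, and the difference was 0.12 ± 0.09 (adjusted p = 0.364, 95% interval -0.08 to 0.32). Accordingly the interaction was -1.06 ± 0.12 (adjusted p = 6.84e-05), and it was called under all 27 alternatives that were run (adjusted p up to 0.00164). From oocyte to embryo *Hspa5* rose by 0.76 ± 0.10 in Het-labelled libraries (adjusted p = 2.39e-05), a direction that was lost when scaled to the sum of FPKM (-0.06, adjusted p = 0.675). In KO-labelled libraries the stage difference was -0.38 ± 0.09 (adjusted p = 0.00386), under the fold limit, and when scaled to the sum of FPKM it was called lower (-1.001, adjusted p = 1.18e-05).

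**Figure D3:**
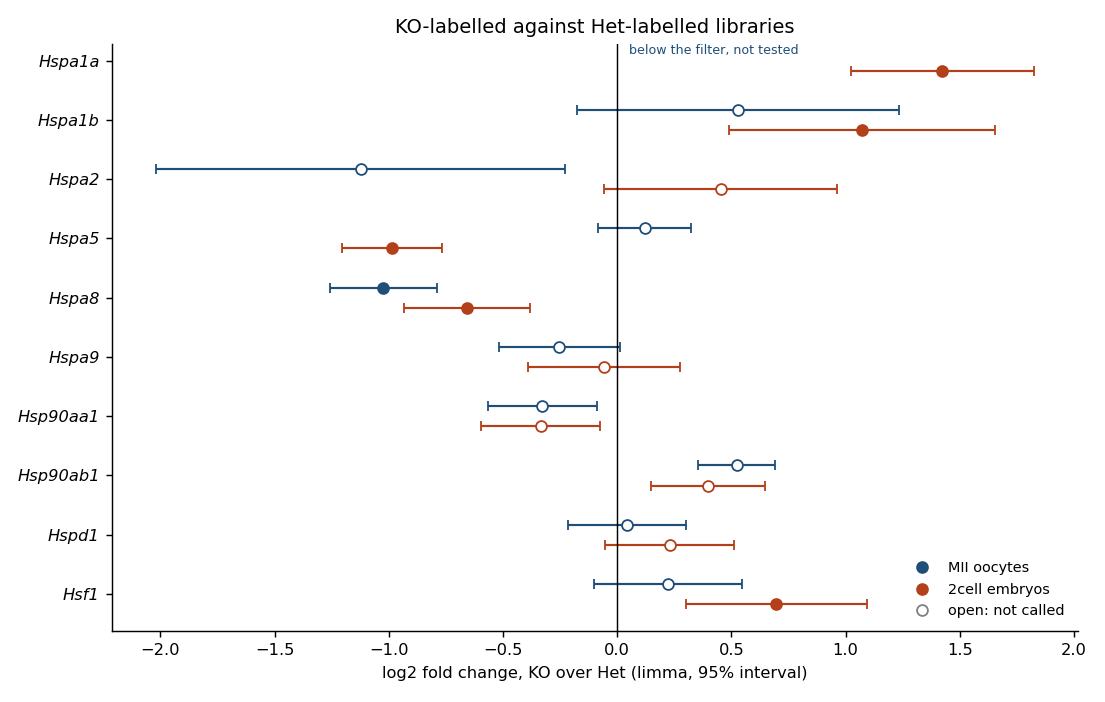
Log2 fold change of KO-labelled over Het-labelled libraries (horizontal axis) with its 95% interval from limma for the 10 heat shock genes, in MII oocytes and 2cell embryos, with filled points where a gene was called. *Hspa8* is lower at both stages, while *Hspa1a* (1.42), *Hspa1b* (1.07) and *Hsf1* (0.70) are higher and *Hspa5* (-0.98) is lower in 2cell embryos. *Hspa1a* was not tested in MII oocytes.

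The HSP90 genes were the most abundant members of the oocyte. *Hsp90aa1* encodes the stress-inducible and *Hsp90ab1* the constitutive cytosolic protein. *Hsp90aa1* was at 131, 119, 133, 125 and 132 FPKM in Het-labelled and at 96.4, 114, 104, 107 and 122 FPKM in KO-labelled MII oocytes. In 2cell embryos it was at 16.5, 20.2, 15.4, 18.2 and 18.7 FPKM in the Het-labelled and at 14.3, 15.2, 14.6 and 13.5 FPKM in the KO-labelled libraries. All embryo libraries were several times below all oocyte libraries, and *Hsp90aa1* fell by 2.81 ± 0.11 in Het-labelled (adjusted p = 1.05e-09) and by 2.85 ± 0.11 in KO-labelled libraries (adjusted p = 1.03e-08), the largest falls among the members. The oocyte ranges of the genotypes overlapped and the embryo ranges did not. The genotype difference was -0.33 ± 0.11 in MII oocytes (adjusted p = 0.0520) and -0.34 ± 0.12 in 2cell embryos (adjusted p = 0.0715), and neither was called.

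*Hsp90ab1* was at 84.1, 95.4, 72.0, 89.9 and 88.6 FPKM in Het-labelled and at 129, 137, 139, 133 and 119 FPKM in KO-labelled MII oocytes, without overlap. In 2cell embryos it was at 31.4, 37.3, 39.7, 37.3 and 41.0 FPKM in the Het-labelled and at 54.9, 56.0, 44.0 and 46.7 FPKM in the KO-labelled libraries, also without overlap. The genotype difference was 0.52 ± 0.08 in MII oocytes (adjusted p = 0.00167) and 0.40 ± 0.11 in 2cell embryos (adjusted p = 0.0343), both past the adjusted p and under the fold limit. With the values as deposited (0.61) or scaled to the sum of FPKM (0.69) the MII difference was called, and so was the 2cell difference with the latter (0.73). The gene fell between stages by 1.17 ± 0.09 in Het-labelled (adjusted p = 3.60e-07) and by 1.33 ± 0.11 in KO-labelled libraries (adjusted p = 2.00e-06).

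With lower means of *Hsp90aa1* and higher means of *Hsp90ab1* in the KO-labelled libraries, the ratio of the genes within a library separated the genotypes. The log2 ratio of *Hsp90aa1* to *Hsp90ab1* was 0.58 ± 0.21 (SD, n = 5) in Het-labelled and -0.27 ± 0.18 (n = 5) in KO-labelled MII oocytes, and -1.06 ± 0.19 (n = 5) and -1.80 ± 0.15 (n = 4) in 2cell embryos. The alpha gene exceeded the beta gene in all 5 Het-labelled oocyte libraries and in 1 of the KO-labelled ones (library E, 0.03), and in none of the embryos. The genotype difference was -0.85 in MII and -0.73 in 2cell libraries, and the stage difference -1.64 and -1.52, with an exact permutation p of 0.00794 (adjusted 0.00866) in all 4. The coding sequences of these paralogs are 75.6% identical with a longest identical run of 33 bases, shorter than a read. Their transcripts hold 43.7% (*Hsp90aa1*) and 51.0% GC (*Hsp90ab1*). Over all genes with a GC value, the log2 change between genotypes had a Pearson r with GC content of 0.316 in MII and 0.366 in 2cell libraries. The part of GC content in the ratio was not tested.

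Of the mitochondrial members, *Hspa9* was called lower in the embryo and *Hspd1* was not called. *Hspa9* (mortalin), the HSP70 of the matrix that pulls imported proteins through the inner membrane, ranged from 9.92 to 11.9 FPKM in Het-labelled and from 8.05 to 11.5 FPKM in KO-labelled MII oocytes, and from 3.75 to 6.01 and 4.16 to 5.03 FPKM in 2cell embryos. All embryo libraries were below all oocyte libraries. *Hspa9* fell by 1.117 ± 0.14 in Het-labelled (adjusted p = 1.47e-05) and by 0.96 ± 0.14 in KO-labelled libraries (adjusted p = 1.16e-04), with genotype differences of -0.25 ± 0.12 (adjusted p = 0.151) and -0.06 ± 0.15 (adjusted p = 0.817).

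*Hspd1* (HSP60), the chaperonin of the matrix, showed little movement. It ranged from 3.05 to 3.58 FPKM and from 3.15 to 4.38 FPKM in Het-labelled and KO-labelled MII oocytes, and from 3.15 to 4.20 and 3.71 to 4.81 FPKM in 2cell embryos, and the ranges overlapped within each of the 4 comparisons. It was called in none of the comparisons. The stage difference was 0.14 ± 0.11 in Het-labelled libraries (adjusted p = 0.244, 95% interval -0.09 to 0.38) and 0.30 ± 0.15 in KO-labelled libraries (adjusted p = 0.102, 95% interval -0.04 to 0.64). Scaled to the sum of FPKM these were -0.65 and -0.31, the former with an adjusted p of 2.61e-04.

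**Figure D4:**
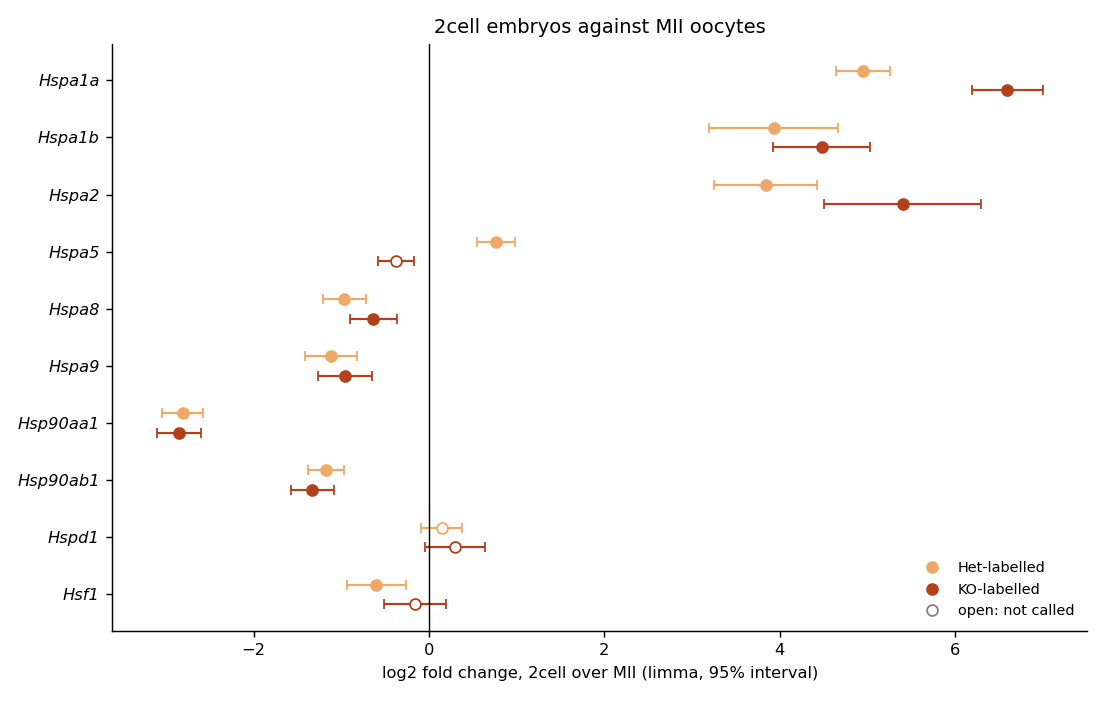
Log2 fold change of 2cell embryos over MII oocytes (horizontal axis) with its 95% interval from limma, in Het-labelled and KO-labelled libraries, with filled points where a gene was called. *Hspa1a*, *Hspa1b* and *Hspa2* lie far to the right, *Hsp90aa1* is the lowest (-2.81 and -2.85), and *Hspa5* is on opposite sides of 0 in the 2 genotypes. The points of *Hspa1a* depend on the 0.1 FPKM added, since its MII values are below the floor.

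*Hsf1* encodes the factor that drives the inducible heat shock genes, and its own RNA was low throughout. In MII oocytes it was at 1.41, 2.48, 1.64, 1.98 and 2.23 FPKM in the Het-labelled and at 3.17, 2.67, 2.33, 1.86 and 2.13 FPKM in the KO-labelled libraries. In 2cell embryos it was at 1.42, 1.05, 1.41, 1.2 and 0.972 FPKM in the Het-labelled and at 1.73, 2.04, 2.57 and 1.95 FPKM in the KO-labelled libraries. The oocyte ranges overlapped, and the embryo ranges did not. *Hsf1* rose in KO-labelled 2cell embryos by 0.70 ± 0.18 (adjusted p = 0.0227). This call was lost without KO-labelled 2cell library B (0.69, adjusted p = 0.0556) or C (0.59, adjusted p = 0.0621), with a pseudocount of 1 (0.45, under the fold limit) and with the relation to GC content removed (0.36, adjusted p = 0.224), the transcript holding 57.8% GC.

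Between stages *Hsf1* fell by 0.60 ± 0.15 in Het-labelled libraries (adjusted p = 0.00358). That change came under the fold limit without Het-labelled MII library B (-0.58) or 2cell library B (-0.56) or E (-0.53), and with a pseudocount of 1 (-0.39). In KO-labelled libraries the stage difference was -0.16 ± 0.16 (adjusted p = 0.377, 95% interval -0.51 to 0.19), and it was called when scaled to the sum of FPKM (-0.76, adjusted p = 0.00210) or with the relation to GC content removed (-0.61, adjusted p = 0.00280). The interaction of 0.51 ± 0.21 did not pass (adjusted p = 0.155).

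The other chaperone genes, 106 in 9 lists by function, were followed as a background of the same pathway, and 103 of them were in the table. In 2cell embryos 12 were called higher and 15 lower of 90 tested in KO-labelled libraries, with a median log2 change of -0.14, beside 18.1% called and a median of 0.01 over all genes. In MII oocytes 7 were higher and 7 lower of 82, with a median of 0.06, beside 12.9% and 0.02. Between stages 25 were higher and 33 lower of 85 in Het-labelled libraries (median -0.19), beside 69% and 0.25 over all genes. In KO-labelled libraries these were 23 and 37 of 90 (median -0.44), beside 66.7% and 0.24. For the interaction 7 were higher and 11 lower of 94 (median -0.12), beside 7.73% and 0.04.

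Genes of the ER were called in both directions in 2cell embryos. *Herpud1*, a membrane protein that helps to degrade misfolded ER proteins, rose in the KO-labelled libraries from 0.104 ± 0.0468 (SD, n = 5) to 0.725 ± 0.224 FPKM (n = 4), a log2 change of 1.99 ± 0.25 (SE, adjusted p = 0.00155). It reached the 0.1 FPKM of the filter in 3 of 5 Het-labelled libraries. *Ddit3* (CHOP), a transcription factor made under prolonged ER stress, rose from 5.48 ± 1.17 to 17.2 ± 1.32 FPKM (log2 change 1.62 ± 0.17, adjusted p = 0.00110). *Atf4*, its activator, was the remaining gene of this list that rose (0.77 ± 0.18, adjusted p = 0.0159), with overlapping groups. *Pdia3*, an ER oxidoreductase that folds glycoproteins, fell from 3.80 ± 1.01 to 1.63 ± 0.231 FPKM (-1.18 ± 0.18, adjusted p = 0.00378), as *Hspa5* did. *Dnajb9*, from the HSP40 list, is an ER partner of *Hspa5* and fell from 89.6 ± 13.8 to 37.6 ± 3.52 FPKM (-1.27 ± 0.15, adjusted p = 0.00137). Of 14 ER stress genes tested 3 were called higher and 1 lower, with a median of -0.26, beside 8.73% higher, 9.35% lower and a median of 0.01 over all genes.

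The lists of HSP70 partners hold genes of several compartments, and their counts in 2cell embryos stand beside 8.73% higher and 9.35% lower over all genes. These list counts, and that of the ER stress genes, hold for the main scaling. Scaling to the sum of FPKM turned the calls over all genes from 1226 higher and 1314 lower to 2423 and 573. Of 24 HSP40 genes tested 3 were higher (*Dnajb1*, *Dnajc11*, *Dnajc14*) and 5 lower (*Dnajb9*, *Dnajb11*, *Dnajb14*, *Dnajc3*, *Dnajc17*). Of 10 nucleotide exchange factors 2 were higher, *Bag3* (1.14 ± 0.22, adjusted p = 0.00759) and *Bag4* (0.90 ± 0.14, adjusted p = 0.00379), and 0 lower. *Dnajb1*, an HSP40 that acts with the inducible HSP70, rose from 9.49 ± 2.04 (n = 5) to 18.1 ± 2.80 FPKM (n = 4), a log2 change of 0.90 ± 0.17 (adjusted p = 0.00792). Of 8 other HSP70 and HSP110 genes tested 1 was lower, *Hspa4* (-0.85 ± 0.16, adjusted p = 0.00742), and 0 higher. Of 9 chaperonin genes 4 were lower (*Tcp1*, *Cct3*, *Cct4* and *Cct8*, log2 changes between -0.88 and -0.78) and 0 higher. *Bag3*, *Bag4*, *Atf4*, *Hspa4*, the chaperonin genes and the HSP40 genes other than *Dnajb9* were named after their values were seen.

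**Figure D5:**
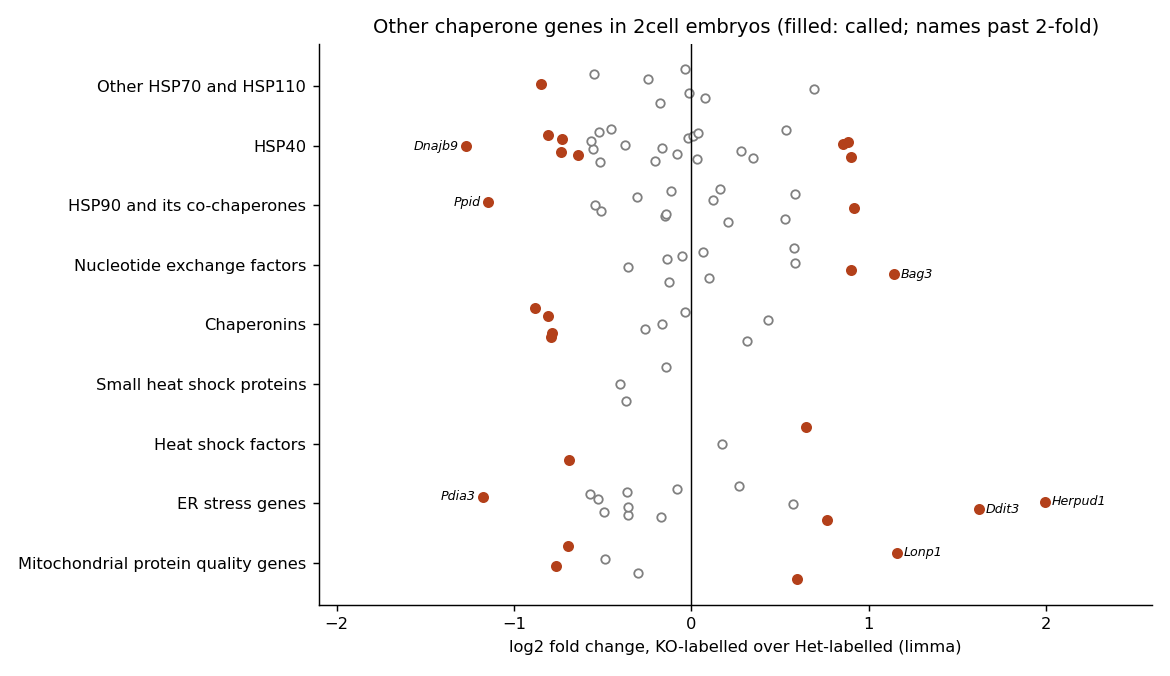
Log2 fold change of KO-labelled over Het-labelled 2cell embryos (horizontal axis, limma) for the 90 other chaperone genes tested, by list (vertical axis), with filled points for called genes and names for those past 2-fold. Called genes lie on both sides in the HSP40 (3 and 5) and ER stress (3 and 1) lists, *Herpud1* (1.99) and *Ddit3* (1.62) are farthest to the right and *Dnajb9* (-1.27) is farthest to the left.

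In MII oocytes *Hspb1*, a small heat shock protein that holds unfolded clients, rose in the KO-labelled libraries from 4.72 ± 1.60 (n = 5) to 14.2 ± 4.17 FPKM (n = 5), with a log2 change of 1.502 ± 0.23 (adjusted p = 0.00227). *Bag1*, a nucleotide exchange factor of HSP70, rose by 0.85 ± 0.17 (adjusted p = 0.00821), *Cct4*, a subunit of the cytosolic chaperonin, fell by 0.76 ± 0.12 (adjusted p = 0.00276), and *Dnajc10*, a reductase of the ER, fell by 0.71 ± 0.15 (adjusted p = 0.0102). The last came under the fold limit when scaled to the sum of FPKM (-0.57). With a pseudocount of 1, *Bag1* (0.49), *Cct4* (-0.43) and *Dnajc10* (-0.32) were all under it, and *Hspb1* kept its call.

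Between stages, *Dnajb9* rose from 0.808 ± 0.198 to 89.6 ± 13.8 FPKM in Het-labelled libraries (log2 change 6.67 ± 0.20, adjusted p = 1.47e-10) and from 1.15 ± 0.204 to 37.6 ± 3.52 FPKM in KO-labelled ones (4.98 ± 0.13, adjusted p = 7.47e-10), the largest log2 rise, with 0.1 FPKM added, among the other chaperones called without overlap in either genotype. *Fkbp4*, a co-chaperone of HSP90 on steroid receptors, rose by 4.35 ± 0.15 in Het-labelled libraries (adjusted p = 4.94e-10). *Bag3*, whose ratio of means would be larger than that of *Dnajb9* without the added 0.1 FPKM, had at most 0.00978 FPKM in any MII library and reached 1.47 ± 0.377 FPKM (n = 4) in KO-labelled 2cell embryos. *Dnajc3*, an ER co-chaperone of *Hspa5* that also holds back a stress kinase, fell by 3.47 ± 0.09 in Het-labelled (adjusted p = 5.94e-11) and by 3.64 ± 0.17 in KO-labelled libraries (adjusted p = 2.76e-08). *Dnajb4*, a cytosolic HSP40, fell by 3.25 ± 0.24 (adjusted p = 1.72e-07) and by 3.06 ± 0.25 (adjusted p = 1.63e-06).

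The genes whose pattern was most like that of the summed *Hspa1a* and *Hspa1b* level were sought among 6845 genes by Pearson r of log2 levels over the 19 libraries. They were *Ormdl3* (r = 0.990), *Slc25a28* (r = 0.988) and *Tubb5* (r = 0.988), which also had their highest mean in KO-labelled 2cell embryos (3.20, 5.04 and 22.5 FPKM). For *Hsf1* they were *Rcan3* (r = 0.937), *Socs7* (r = 0.936) and *Scap* (r = 0.929), with their highest means in KO-labelled MII oocytes. These values describe likeness over libraries of 4 groups that differ in stage, and they carry no test.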

How the data were processed

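RNA of 19 libraries was measured by paired-end sequencing of 150 bases with the SMART-seq v4 kit. According to the labels and methods, the authors trimmed reads with Trim Galore 0.4.1, mapped them to GRCm38 with HISAT2 2.0.5 and computed FPKM in SeqMonk. The labels name a NovaSeq and the methods a HiSeq X. Strand setting and treatment of reads with several matches are not given in the sources used here. The deposited values are FPKM, although the table is named as raw counts: 0.00203% of them are whole numbers above 0, and 1.07% lie above 0 but below 1e-06. No count test was run, and 0 columns were left unused. Depth was estimated from low values of 9238 genes with 1 transcript, which fall near steps of 1 fragment. Intervals and floors from it cover counting error only.

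Libraries were grouped by their titles. Libraries were put on 1 scale by a TMM-type factor, leaving out 30% of log ratios and 5% of levels on each side. Genes with at least 0.1 FPKM in 5 libraries (4 where a comparison holds KO 2cell libraries or all 19) were analysed by limma 3.58.1 under R 4.3.3, on a log2 scale after adding 0.1 FPKM, with a variance trend and Benjamini-Hochberg adjustment over all of them. Fold changes on this scale understate those of low genes. A gene was called at an adjusted p under 0.05 and over 1.5-fold. The interaction was fitted on all 19 libraries. For sums and ratios of paralogs the test was a two-sided exact permutation test, adjusted over 12 tests. Scripts were tested on simulated data. Of 200 genes given a change there, limma called 54% between genotypes in MII and 46.5% in 2cell libraries. Between stages it called 50.5% in Het and 45.5% in KO libraries. A gene that was not called may therefore still differ. Alternatives were deposited values, sum scaling, a pseudocount of 1, no filter, a filter of 1 FPKM, the replicate letter as a block, removal of each library's loess trend on GC content (span 0.5), both together, all 19 libraries in 1 fit, other call rules and each library left out.

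Genes named by rule are the 10 members, *Cpeb3*, the 2 largest rises and falls without overlap among other chaperone genes in each comparison of 2 groups, and the 3 genes most like the *Hspa1a* and *Hspa1b* sum and *Hsf1*. Marker genes, *Hspa1l* and further chaperone genes were named outside this rule. Members and lists were chosen with earlier results of these data known. Promoter windows came from RefSeq (GRCm38.p6), other annotation from GENCODE vM21, which holds 25642 of the 25891 gene names. Python 3.11.15, numpy 2.4.6, pandas 2.3.3 and matplotlib 3.10.9 were used.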

Additional observations from a re-analysis of the deposited data

Results flagged for a closer look

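The genotype difference of *Hspa5* differed between the stages, with an interaction of -1.06 on the log2 scale and MII ranges that overlapped. The interaction of *Hspa1a* passed the same test at 1.64, but its MII libraries were all below the floor of 3 fragments, so no genotype difference could be measured there and a difference between stages is not shown. Single libraries stood apart from their group in 2 of the 52 sets of values checked with Dixon's test, which flags about 1 in 20 by chance. *Hspa1a* was at 0.0214 FPKM in KO-labelled MII library D, about 1 fragment, while the other 4 libraries were at or near 0. It was at 2.76 FPKM in Het-labelled 2cell library E, while the other 4 lay between 3.61 and 3.79 FPKM, and the 2cell genotype call of *Hspa1a* held with each library left out.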

How the results depend on the processing

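Of the members' values, 481 of 527 kept direction and call under the alternatives and 532 of 551 with 1 library left out, and 133 of 134 values of sums and ratios did. Members called between genotypes in MII oocytes (1) came to 2 with values as deposited, sum scaling, all 19 libraries in 1 fit, the adjusted p alone or the unadjusted p with the fold limit, and to 1 to 2 with a library left out. Over all genes, 1352 of 10515 calls came to 1377, 1589, 1234 of 15786, 2236 and 1798 in that order, and to 926 to 1494 with a library left out. In 2cell embryos (5) members came to 3 with the GC relation removed, where all genes went from 2540 of 14051 to 1803 of 13933. For the interaction (2) members came to 4 with a pseudocount of 1, where all genes went from 1220 to 815 of 15786. Other chaperone genes called in MII oocytes (14) came to 4 with a pseudocount of 1, 9 without a filter, 23 by the adjusted p alone and 7 to 14 with a library left out. The calls over all genes (1352) came to 481, 1058 of 23046 and 2236 under the first 3 of these. In 2cell embryos (27) the other chaperone genes called came to 14 and for the interaction (18) to 10 with a pseudocount of 1, and between stages in Het-labelled libraries (58) to 38 with a filter of 1 FPKM. All genes called went from 2540 to 1160, from 1220 to 815, and from 8753 of 12684 to 4129 of 5454. The summed *Hspa1a* and *Hspa1b* difference in MII oocytes ranged from 0.233 to 0.706 with a library left out, the latter without Het-labelled MII library D. The cause of these changes was not tested.

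With the replicate block, members called in 2cell embryos came to 2, without *Hspa1b* (1.001, adjusted p = 0.116), *Hspa8* (-0.63, adjusted p = 0.0680) and *Hsf1* (0.62, adjusted p = 0.125), and to 0 with the GC relation removed as well, and other chaperone genes to 8 in MII oocytes, 6 in 2cell embryos and 0 in 2cell embryos with both. Over all genes the block took the calls from 2540 to 415 of 14051 in 2cell embryos and from 1352 to 829 of 10515 in MII oocytes. In limma no gene at all was called in 2cell embryos with the block and the GC relation removed, although 2713 genes had an unadjusted p under 0.05 with over 1.5-fold. With both, *Hspa1a* and *Hspa5* had adjusted p of 0.0535 and 0.0526. The block spends degrees of freedom, and letters did not pair libraries: 1 of 5 MII pairs and 0 of 4 2cell pairs correlated above 0.1, so these are libraries that share only a letter.

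Directions turned only for differences that were not called, *Hspa5* between stages excepted. With sum scaling they turned for *Hspa9* in 2cell embryos (0.262), for *Hspa5* (-0.0554) and *Hspd1* (-0.652) between stages in Het-labelled and *Hspd1* (-0.313) in KO-labelled libraries, and for the interaction of *Hsp90ab1* (0.0327). *Hspa9* in 2cell embryos also turned with a filter of 1 FPKM (0.0358), with GC removed (0.0592, and 0.0415 with the block too) and without Het-labelled library D or KO-labelled library A, over a range of -0.136 to 0.0293 with a library left out. *Hsf1* in MII oocytes turned with GC removed (-0.00605 with or without the block). *Hspd1* in MII oocytes ranged from -0.0334 (without KO-labelled library D) to 0.116. The interaction of *Hsp90aa1* turned with values as deposited (-0.0658) or a filter of 1 FPKM (-0.00126), and ranged from -0.0911 to 0.0890 with a library left out, below 0 without Het-labelled MII library C, KO-labelled MII library A or Het-labelled 2cell library C. Depth limits *Hspa1a*, *Hspa1b* and *Hspa2* in MII oocytes, where values rest on at most 2.44, 20.1 and 40.7 fragments, and with them every stage change and interaction of these genes.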

Other observations

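Immediate early genes and globins were listed as markers and are given here as values. In KO-labelled against Het-labelled 2cell embryos *Junb* was at 2.00 ± 0.390 (SD, n = 4) and 0.490 ± 0.177 FPKM (n = 5), *Ier2* at 20.5 ± 4.86 and 7.86 ± 2.64, *Egr1* at 2.48 ± 0.291 and 0.990 ± 0.0886 and *Fos* at 2.39 ± 0.998 and 0.778 ± 0.259. The log2 changes were 1.84, 1.37, 1.21 and 1.44, with adjusted p of 0.00279, 0.00514, 0.00137 and 0.0111 in limma. *Jun* (1.69, adjusted p = 0.0970) and *Fosb* (0.37, adjusted p = 0.174) did not pass, and *Dusp1* (0.57, adjusted p = 0.0439) was under the fold limit. *Hba-a1*, an alpha globin gene, was at 63.7 ± 20.9 FPKM (n = 5) in Het-labelled and 55.6 ± 20.1 FPKM (n = 4) in KO-labelled 2cell embryos and at 0.428 FPKM or less in every MII library, and its difference between genotypes at the 2cell stage was -0.25 (adjusted p = 0.588).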
